A study of Homo sapiens with 4 samples.

Results

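Gene rows that carry accession-style or placeholder names were examined in THP-1 cells, a long-established line from a human monocytic leukaemia, after a short hairpin RNA (shRNA) against PIWIL4. They are FLJ36000, LOC100130872, C6orf223, LOC90246 and KIAA1147, which are 5 of the 25680 gene names in the count tables. They were picked by name because their counts differed strongly between the groups compared here, so their differences are given as a description, with no test. One member, FLJ36000, had the higher level with the PIWIL4 shRNA, and the other 4 had the lower level.

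The study belongs to work on PIWIL4, R-loops and the growth of acute myeloid leukaemia cells. Both groups were THP-1 cells transduced with a lentivirus, sorted by flow cytometry 48 hours later and used for total RNA-seq. The Scrambled group, 2 libraries, received a hairpin of scrambled sequence, and the shPIWIL4 group, 2 libraries, received a hairpin against PIWIL4. A single cell line was used in these libraries, with no rescue, and the titles name no second PIWIL4 hairpin. The titles mark libraries 1 and 2 of a group as exp. rep1 and exp. rep2. The labels do not say whether these came from separate cultures, so the spread between them may be technical. The treatment label of the shPIWIL4 libraries also contains the word scrambled, and groups were therefore taken from the sample titles.

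Long non-coding RNAs are transcribed like messenger RNAs and often spliced, but are not known to be translated. Some are transcribed next to or across a protein-coding gene and can share its promoter or its open chromatin, which is why a locus of unknown function is usually read beside its neighbours. PIWIL4 is a PIWI-clade Argonaute protein, a family best known for binding piRNAs and silencing transposons in the germ line, and R-loops are hybrids of a nascent RNA with its DNA template.

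The word uncharacterised holds for 3 of the members by their present names, FLJ36000, LOC100130872 and LOC90246, all of which RefSeq lists as long non-coding RNA. C6orf223 is now LINC03040 in RefSeq, a long non-coding RNA with 3 transcripts, whereas GENCODE v29 lists it as protein coding with 4 transcripts. KIAA1147 is now DENND11, a protein-coding gene of the DENN domain family, whose best-known members act on Rab GTPases. FLJ36000 lies on chromosome 17, LOC100130872 on chromosome 4, C6orf223 on chromosome 6, LOC90246 on chromosome 3 and KIAA1147 on chromosome 7, so no pair of members are neighbours.

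The sequence around each start site is shown because the members share no chromosome and can be compared only by such features. Each promoter window is from RefSeq on GRCh38.p14, runs 5′ to 3′ on the strand of the gene, and holds 250 bases before and 50 bases from the start. The authors' counts were made on hg19, so these positions locate the printed sequence and not the counted reads. Capitals mark matches on either strand to any of 4 short motifs. The first is ACGTG, which is the core of the hypoxia response element. The second is TATAAA, which is the consensus of the box bound by the TATA-binding protein. The remaining motifs are TGANTCA, which is a common form of the AP-1 site, and AGATAA, which is a form of the site bound by proteins of the GATA family. None of these motifs overlapped another in the 4 windows. LOC100130872 is at chr4:1208913-1209212 on the minus strand, C6orf223 at chr6:44000335-44000634 on the plus strand, LOC90246 at chr3:128507585-128507884 on the plus strand and KIAA1147 at chr7:141702117-141702416 on the minus strand. The first exon of FLJ36000, from GENCODE v29 on GRCh38, is at chr17:22406019-22406169 on the plus strand, and is all lower case because no motif was searched in it.
LOC100130872 promoter: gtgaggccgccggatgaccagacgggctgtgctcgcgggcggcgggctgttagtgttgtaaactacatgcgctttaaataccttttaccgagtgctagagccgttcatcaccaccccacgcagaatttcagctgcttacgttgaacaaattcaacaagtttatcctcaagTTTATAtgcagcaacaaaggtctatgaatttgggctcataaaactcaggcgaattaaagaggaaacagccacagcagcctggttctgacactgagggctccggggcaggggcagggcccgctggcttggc
C6orf223 promoter: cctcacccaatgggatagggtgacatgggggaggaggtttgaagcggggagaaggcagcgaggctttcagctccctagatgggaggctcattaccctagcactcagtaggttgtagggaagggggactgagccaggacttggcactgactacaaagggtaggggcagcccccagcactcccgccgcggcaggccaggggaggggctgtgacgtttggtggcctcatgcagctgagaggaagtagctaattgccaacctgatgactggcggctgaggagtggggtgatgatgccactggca
LOC90246 promoter: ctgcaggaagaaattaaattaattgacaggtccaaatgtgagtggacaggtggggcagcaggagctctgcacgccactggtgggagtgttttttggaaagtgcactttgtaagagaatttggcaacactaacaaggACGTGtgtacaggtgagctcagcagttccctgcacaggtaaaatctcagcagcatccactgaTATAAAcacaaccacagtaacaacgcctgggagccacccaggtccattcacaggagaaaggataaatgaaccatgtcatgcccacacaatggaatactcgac
KIAA1147 promoter: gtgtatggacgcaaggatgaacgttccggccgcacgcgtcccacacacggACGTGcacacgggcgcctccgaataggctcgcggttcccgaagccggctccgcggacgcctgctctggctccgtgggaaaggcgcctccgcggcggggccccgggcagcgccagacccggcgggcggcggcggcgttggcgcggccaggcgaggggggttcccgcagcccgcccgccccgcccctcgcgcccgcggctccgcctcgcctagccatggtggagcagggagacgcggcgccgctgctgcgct
FLJ36000 exon 1: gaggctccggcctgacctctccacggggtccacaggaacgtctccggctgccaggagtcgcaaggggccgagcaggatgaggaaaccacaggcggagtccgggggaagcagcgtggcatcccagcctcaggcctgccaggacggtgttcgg

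The 4 promoter windows had little in common. KIAA1147 held 49 CG dinucleotides, more than 98.4% of the 35116 RefSeq windows of this length, whose median was 14. LOC100130872 held 15, C6orf223 held 7 and LOC90246 held 4. ACGTG was found once in LOC90246 and once in KIAA1147, and 21.4% of all windows hold it. TATAAA or its reverse complement was found once in LOC100130872 and once in LOC90246, against 11.5% of all windows. Neither TGANTCA (7.71% of windows) nor AGATAA (10.3%) was found in any of the 4, and C6orf223 held none of the 4 motifs. The LOC100130872 window overlaps 1 of the 3 RefSeq windows of SPON2, a gene on the same strand. That start of SPON2 lies 118 bases further along, and the windows have 182 bases in common, the last 182 bases printed for LOC100130872.

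The reads assigned to genes numbered 31458079 in Scrambled library 1, 51655687 in Scrambled library 2, 50689304 in shPIWIL4 library 1 and 53657246 in shPIWIL4 library 2. PIWIL4 itself was at 38.5 and 37.2 CPM (the count scaled to the library's size with edgeR's TMM factors) in Scrambled and at 17.8 and 17.4 in shPIWIL4. Its log2 fold change was −1.10 (SE 0.09, edgeR adjusted p 1.3e-05). Of 12 monocytic and myeloid markers, 11 were at 1 CPM or more in all libraries, the exception being CD86 in shPIWIL4, and their summed level was 1307 and 1317 CPM in Scrambled and 3057 and 3030 CPM in shPIWIL4. Nearly all of that difference was LYZ, at 143 and 151 CPM against 1803 and 1817 CPM, and without it the sum was 1164 and 1166 CPM against 1254 and 1212 CPM. CD68 was also higher, while CSF1R, CD4, MPO and CD86 were lower. The summed levels of the T cell, B cell, erythroid, epithelial and fibroblast lists were at most 5.45 CPM in every library. The B cell list summed to 5.45 and 5.23 CPM in Scrambled and 1.76 and 2.15 CPM in shPIWIL4, with MS4A1 at 0.0192 CPM or less, and the fibroblast list to 1.82 and 2.37 CPM against 0.178 and 0.308 CPM, nearly all of it COL1A1. The megakaryocyte list summed to 9.06 and 11.1 CPM in Scrambled and to 3.93 and 2.66 CPM in shPIWIL4. In that list ITGA2B was at 7.30 CPM or more in Scrambled and at 1.34 CPM or less in shPIWIL4. GP9 was at 1.76 and 2.08 CPM against 2.59 and 1.75 CPM, and PF4 was at 0 in every library. The part of these shifts in the results below was not tested.

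All 5 members passed the filter on low counts, and in all 5 the 2 groups did not overlap, which also held for 78.6% of the 16108 genes tested. Nothing is read from that count, since the members were chosen on this contrast. In this bulk comparison fewer cells that express a gene and less of its RNA per cell cannot be told apart.

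FLJ36000 was nearly silent in the Scrambled libraries and abundant in the shPIWIL4 libraries. It had 12 and 26 reads in Scrambled libraries 1 and 2, against 3120 and 2998 reads in shPIWIL4 libraries 1 and 2. These were 0.378 and 0.492 CPM against 61.6 and 57.7 CPM, so both shPIWIL4 libraries stood far above both controls. In TPM, the authors' value scaled for gene length as well as depth, it went from 0.196 and 0.263 to 34.1 and 30.8. Its place among all rows moved with it, from above 36.8% of the rows by mean TPM in Scrambled to above 81.9% in shPIWIL4. The fitted log2 fold change was 7.05 (SE 0.15), 132-fold, the largest rise of the 16108 genes tested, and its size rests on the 12 and 26 control reads. In GENCODE v29 it is a single transcript of 2 exons and 3801 bases. A search of the GENCODE transcripts at 95% identity over 100 bases or more found AC209154.1, which lies within its own span, and AC233702.6 at another locus of chromosome 17, which matched over 201 bases, so reads in that stretch could be shared.

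LOC100130872 was above 73.8% of the rows by mean TPM in Scrambled and above 51.8% in shPIWIL4, close to the median row. Its reads numbered 1396 and 2303 in Scrambled and 263 and 247 in shPIWIL4. This was 43.9 and 43.6 CPM against 5.19 and 4.75 CPM, and the Scrambled libraries differed from each other by less than 1 CPM. The deposited TPM values were 17.4 and 17.8 against 2.19 and 1.93. The log2 fold change was −3.14 (SE 0.11), 8.80-fold lower, which placed it 122nd from the largest fall.

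C6orf223 was the most abundant member in Scrambled, and it was above 95.2% of the rows by mean TPM there. Its reads numbered 5897 and 9891 in Scrambled and 1588 and 1566 in shPIWIL4. In CPM the libraries were at 186 and 187 in Scrambled and at 31.3 and 30.1 in shPIWIL4, and in TPM at 101 and 105 against 18.2 and 16.9. The log2 fold change was −2.60 (SE 0.08), 6.07-fold lower, 233rd from the largest fall. In shPIWIL4 it was still above 72.9% of the rows by mean TPM.

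LOC90246 and KIAA1147 were, in Scrambled and by TPM, the less abundant of the members that were lower with the PIWIL4 shRNA. LOC90246 had 704 and 1082 reads in Scrambled and 242 and 219 in shPIWIL4. It was at 22.2 and 20.5 CPM against 4.78 and 4.21 CPM, and at a TPM of 15.9 and 15.1 against 3.65 and 3.10. Its log2 fold change was −2.24 (SE 0.12), 363rd from the largest fall. KIAA1147 had 520 and 827 reads in Scrambled and 176 and 198 in shPIWIL4, or 16.4 and 15.7 CPM against 3.47 and 3.81 CPM. Its transcript is long, with 7296 bases in 9 exons, and its TPM was 4.42 and 4.36 against 1.00 and 1.06. The log2 fold change of KIAA1147 was −2.13 (SE 0.12), 4.39-fold lower, 411th from the largest fall. So the lower levels of these 4 were large, but each lay within a long list of genes with a larger fall.

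**Figure D1:**
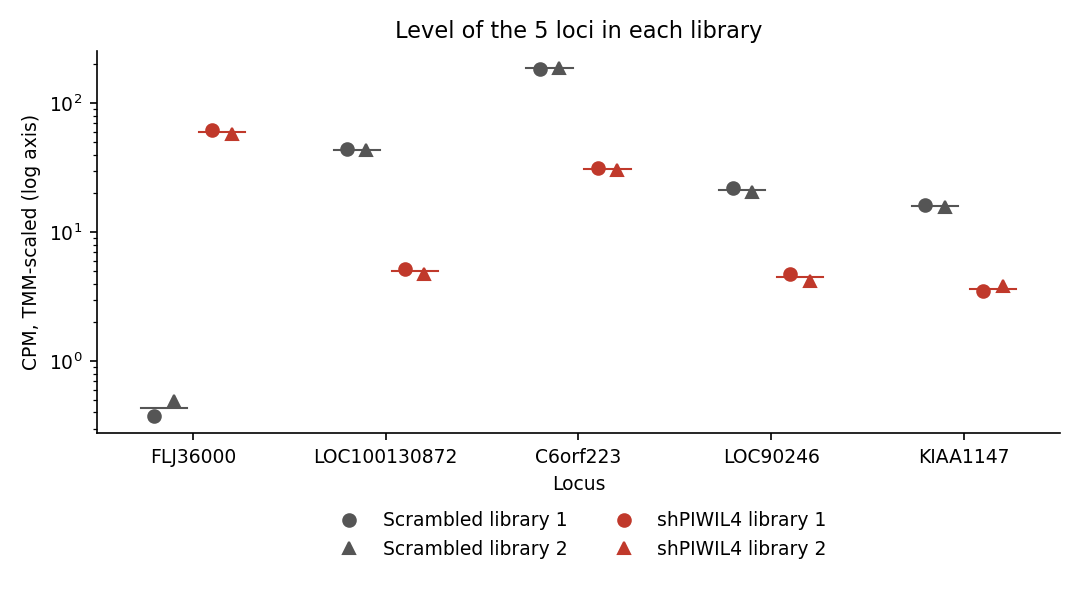
Level of each member in each library, in TMM-scaled CPM on a log axis, with 1 point per library, circles for library 1 and triangles for library 2. FLJ36000 is the one member whose shPIWIL4 points (61.6 and 57.7 CPM) lie above its Scrambled points (0.378 and 0.492 CPM).

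**Figure D2:**
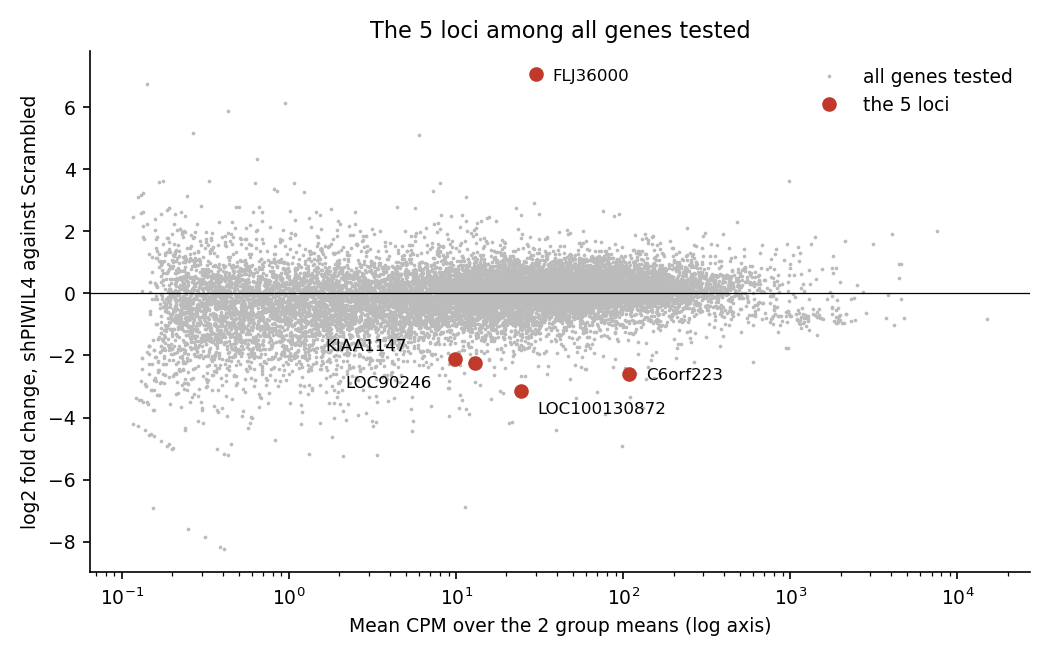
Log2 fold change of shPIWIL4 over Scrambled against mean level for the 16108 genes tested, with the 5 members marked by name. FLJ36000, at 7.05, has the largest rise, and the other 4 members lie between −3.14 and −2.13 within the spread of falling genes.

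The order of the members by TPM, which is per length and so can be compared between genes, changed between the groups. In Scrambled, C6orf223 was highest, LOC100130872 and LOC90246 followed with groups of libraries close together (17.4 and 17.8 against 15.9 and 15.1), KIAA1147 was next and FLJ36000 was lowest. In shPIWIL4, FLJ36000 was highest, C6orf223 second, followed by LOC90246, then LOC100130872, and KIAA1147 lowest, with no overlap between successive members in these 2 libraries.

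Neighbouring genes were examined next, because they were chosen by position alone and so can be tested. SPON2 is an exception in part. It overlaps LOC100130872 on the same strand and may share its reads, so its test is not free of the choice of that member. It is among the 9 neighbours lower by 2-fold or more below. For each member they were the 5 nearest genes on each side, in RefSeq order, with a row in the tables. Of these 50 genes, 38 passed the low-count filter and 22 of the 38 were called at an adjusted p under 0.05 (57.9%), against 57.7% of all genes tested. Of the 22, 9 were called higher (23.7%, against 28.7% of all genes) and 13 lower (34.2%, against 29.1%), and the median log2 fold change was 0.02, against −0.003 for all genes. Their share of calls was therefore that of the whole table. Of the 13, 9 were lower by 2-fold or more (23.7% of 38, against 11.3% of all genes), and they lay around the 4 members with a lower level in shPIWIL4. Only 4 of the 38 tested neighbours lie around FLJ36000, so nothing is read from where the 9 lie. The 9 include LINC01512 and C3orf27, whose shPIWIL4 reads are too few for a fold change, and leaving out all genes that low it was 7 of 36 (19.4%, against 11.1% of all genes). LINC01512, C3orf27, CAPN11, TAS2R3 and TAS2R4 passed the low-count filter only through their Scrambled reads. In shPIWIL4, CAPN11 had 16 and 9 reads, TAS2R3 had 6 and 14, and TAS2R4 had 14 and 10. The share lower by 2-fold is therefore not free of the contrast. With 10 genes on each side in place of 5, 24 neighbours were called higher and 19 lower, so the larger number of lower calls did not hold over the wider range. Nor did it hold at 5 genes with a stricter filter, a mean of at least 1 CPM. There, of 33 tested, 9 were called higher and 9 lower. The other alternatives at 5 genes kept more lower than higher calls. One neighbour, RPN1 beside LOC90246, was higher by 2-fold or more, as were 4.79% of all genes. The neighbours share loci and in places overlap, so these counts are not of independent genes.

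Around FLJ36000, no tested neighbour changed by 2-fold with TMM scaling. Of its 10 neighbours, 6 had at most 5 reads in any library, among them the nearest on either side, FAM27L with 0, 0, 0 and 1 reads and MTRNR2L1 with 3, 5, 4 and 5 reads. WSB1, which encodes a substrate-recognition subunit of a ubiquitin ligase, was lower, at 320 and 320 CPM in Scrambled and 163 and 173 in shPIWIL4 (log2 fold change −0.93, SE 0.08, adjusted p 1.9e-05). With upper-quartile scaling WSB1 was slightly beyond 2-fold lower (−1.05, adjusted p 1.3e-05). C17orf51 was higher (0.80, SE 0.18, adjusted p 0.0049), a call that did not hold without Scrambled library 2 (0.61, adjusted p 0.083). MAP2K3, a kinase upstream of p38, was higher by 0.36 (SE 0.11, adjusted p 0.021), and its call did not hold without Scrambled library 2 (0.35, adjusted p 0.09), without shPIWIL4 library 1 (0.23, adjusted p 0.061), or with upper-quartile scaling (0.24, adjusted p 0.11) or library totals alone (0.32, adjusted p 0.06). KSR1, a scaffold of the MAP kinase cascade, was at −0.07 (SE 0.10, adjusted p 0.58). The rise at FLJ36000 thus had no 2-fold counterpart among the 4 neighbours that were tested. The nearest of these, C17orf51 and WSB1, are each number 3 in order from it, and distances in bases were not taken. Nothing is therefore shown for its immediate surroundings.

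LOC100130872 overlaps SPON2, which encodes a secreted protein of the extracellular matrix, on the same strand, and in RefSeq also 2 protein-coding loci without a row in the tables, LOC124900647 and LOC124900164. SPON2 was lower too, with 131 and 276 reads in Scrambled and 66 and 45 in shPIWIL4, or 4.12 and 5.23 CPM against 1.30 and 0.866 CPM. Its log2 fold change was −2.12 (SE 0.21, adjusted p 3.9e-05). Because both genes overlap on the same strand, how reads were split between them depends on the authors' counting, and their values are uncertain to that extent. Per length, mean TPM in Scrambled was 17.6 for LOC100130872 and 3.78 for SPON2, and in shPIWIL4 it was 2.06 and 0.907. On the other side lie CTBP1, a transcriptional corepressor, and its antisense transcripts, and none of these was called: CTBP1-AS was at −0.29 (SE 0.19, adjusted p 0.21), CTBP1 at −0.23 (SE 0.14, adjusted p 0.20) and CTBP1-AS2 at 0.14 (SE 0.09, adjusted p 0.22). CTBP1 overlaps both CTBP1-AS and CTBP1-AS2, and the strand setting of the counting is not given, so their reads may be shared. Without shPIWIL4 library 1, CTBP1 (−0.46, adjusted p 9.2e-07) and CTBP1-AS (−0.59, adjusted p 1e-07) were called lower, and without Scrambled library 1 so was CTBP1-AS (−0.45, adjusted p 0.014). RNF212, a factor of meiotic recombination, and FGFRL1, a receptor of the FGF receptor family, were lower by less than 2-fold, at −0.87 (SE 0.14, adjusted p 0.00051) and −0.79 (SE 0.12, adjusted p 0.00036). IDUA, a lysosomal enzyme, was higher by 0.72 (SE 0.13, adjusted p 0.0014), and MAEA, a subunit of a ubiquitin ligase, by 0.39 (SE 0.11, adjusted p 0.013). The MAEA call did not hold without Scrambled library 1 (0.33, adjusted p 0.061) or with upper-quartile scaling (0.27, adjusted p 0.063).

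C6orf223 lies between LINC01512 and VEGFA on one side and MRPL14 on the other, and overlaps SCIRT in RefSeq, which has no row in the tables. VEGFA, the angiogenic growth factor induced by hypoxia, was at 195 and 194 CPM in Scrambled and at 50.0 and 50.5 CPM in shPIWIL4 (log2 fold change −1.95, SE 0.08, adjusted p 3.3e-07). LINC01512 had 17 and 29 reads in Scrambled and 1 and 2 in shPIWIL4 (adjusted p 0.00013), too few for a fold change. CAPN11, which encodes a calpain protease, fell from 121 and 233 reads to 16 and 9 (−4.07, SE 0.25, adjusted p 2.7e-06), a larger log2 change than that of C6orf223. These 3 were the only ones called among the 10 neighbours, all of which were tested, a smaller share than the 57.7% called among all genes. Among all genes 29.1% were called lower, and 11.3% lower by 2-fold or more. Nothing is read from so few genes, some of which overlap. MRPL14, the nearest gene on the other side, was at 0.22 (SE 0.09, adjusted p 0.068), and was called higher without shPIWIL4 library 1 (0.29, adjusted p 0.0049) and with the low-count filter left out (0.26, adjusted p 0.029). TMEM63B, which lies between MRPL14 and CAPN11, was at 0.05 (SE 0.09, adjusted p 0.64), and MRPS18A, next to VEGFA, at 0.06 (SE 0.09, adjusted p 0.60). The chaperone gene HSP90AB1 and the nucleoside transporter SLC29A1, further out, were at 0.04 (SE 0.11) and 0.02 (SE 0.08). VEGFA, LINC01512 and C6orf223 were thus consecutive, and CAPN11 was separated from them by MRPL14 and TMEM63B, which were not called.

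LOC90246 lies between GATA2-AS1 and C3orf27, next to GATA2, a transcription factor of blood stem and progenitor cells. Of its 8 tested neighbours 7 were called (87.5%, against 57.7% of all genes), 4 lower (50.0%, against 29.1%) and 3 higher (37.5%, against 28.7%). Nothing is read from so few genes, some of which overlap. GATA2 was at 47.5 and 53.0 CPM in Scrambled and 23.0 and 17.8 in shPIWIL4 (log2 fold change −1.30, SE 0.13, adjusted p 3.2e-05). GATA2-AS1 was at 38.5 and 41.8 CPM against 16.4 and 15.7 (−1.32, SE 0.10, adjusted p 6.3e-06). GATA2-AS1 overlaps GATA2 and the strand setting of the counting is not given, so the reads of this pair cannot be told apart. C3orf27 had 14 and 16 reads in Scrambled and 0 and 1 in shPIWIL4 (adjusted p 0.0006). EEFSEC, the elongation factor for selenocysteine, was lower by less than 2-fold (−0.54, SE 0.13, adjusted p 0.0051).

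Beyond C3orf27 the direction turned. RPN1, a subunit of the oligosaccharyltransferase of the endoplasmic reticulum, was higher, at 276 and 272 CPM in Scrambled and 592 and 615 in shPIWIL4 (log2 fold change 1.14, SE 0.09, adjusted p 7.3e-06). RAB7A, a GTPase of late endosomes, was at 226 and 224 CPM against 291 and 305 (0.40, SE 0.08, adjusted p 0.0023). ACAD9, which takes part in the assembly of respiratory complex I, was higher by 0.66 (SE 0.08, adjusted p 0.00011). The remaining tested neighbour, KIAA1257, was not called (−0.17, SE 0.15, adjusted p 0.36). So the genes from EEFSEC to C3orf27 that passed the filter were lower, and the 3 after them were higher.

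Around KIAA1147, the nearest genes on either side were not called or were barely detected. AGK, a mitochondrial lipid kinase and the nearest gene before it, was at 28.2 and 26.7 CPM in Scrambled and 28.3 and 31.7 in shPIWIL4 (log2 fold change 0.13, SE 0.10, adjusted p 0.29). WEE2-AS1 and WEE2 had at most 15 reads in any library. SSBP1, a mitochondrial DNA-binding protein, was at 0.20 (SE 0.11, adjusted p 0.13), and was called higher without shPIWIL4 library 1 (0.34, adjusted p 0.00046). The bitter taste receptor genes TAS2R3 (21 and 27 reads against 6 and 14) and TAS2R4 (30 and 34 against 14 and 10) were lower at low counts, with log2 fold changes of −1.54 (SE 0.40, adjusted p 0.0091) and −1.70 (SE 0.35, adjusted p 0.0024). With DESeq2 TAS2R3 was not called, at a similar log2 fold change with a larger error (−1.57, SE 0.75, adjusted p 0.071). NDUFB2, a subunit of complex I, was higher by 0.89 (SE 0.08, adjusted p 2.7e-05), and MRPS33, of the mitochondrial ribosome, by 0.45 (SE 0.12, adjusted p 0.012), which was not called without Scrambled library 2 (0.35, adjusted p 0.094). BRAF, the kinase gene, was at 0.03 (SE 0.13).

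**Figure D3:**
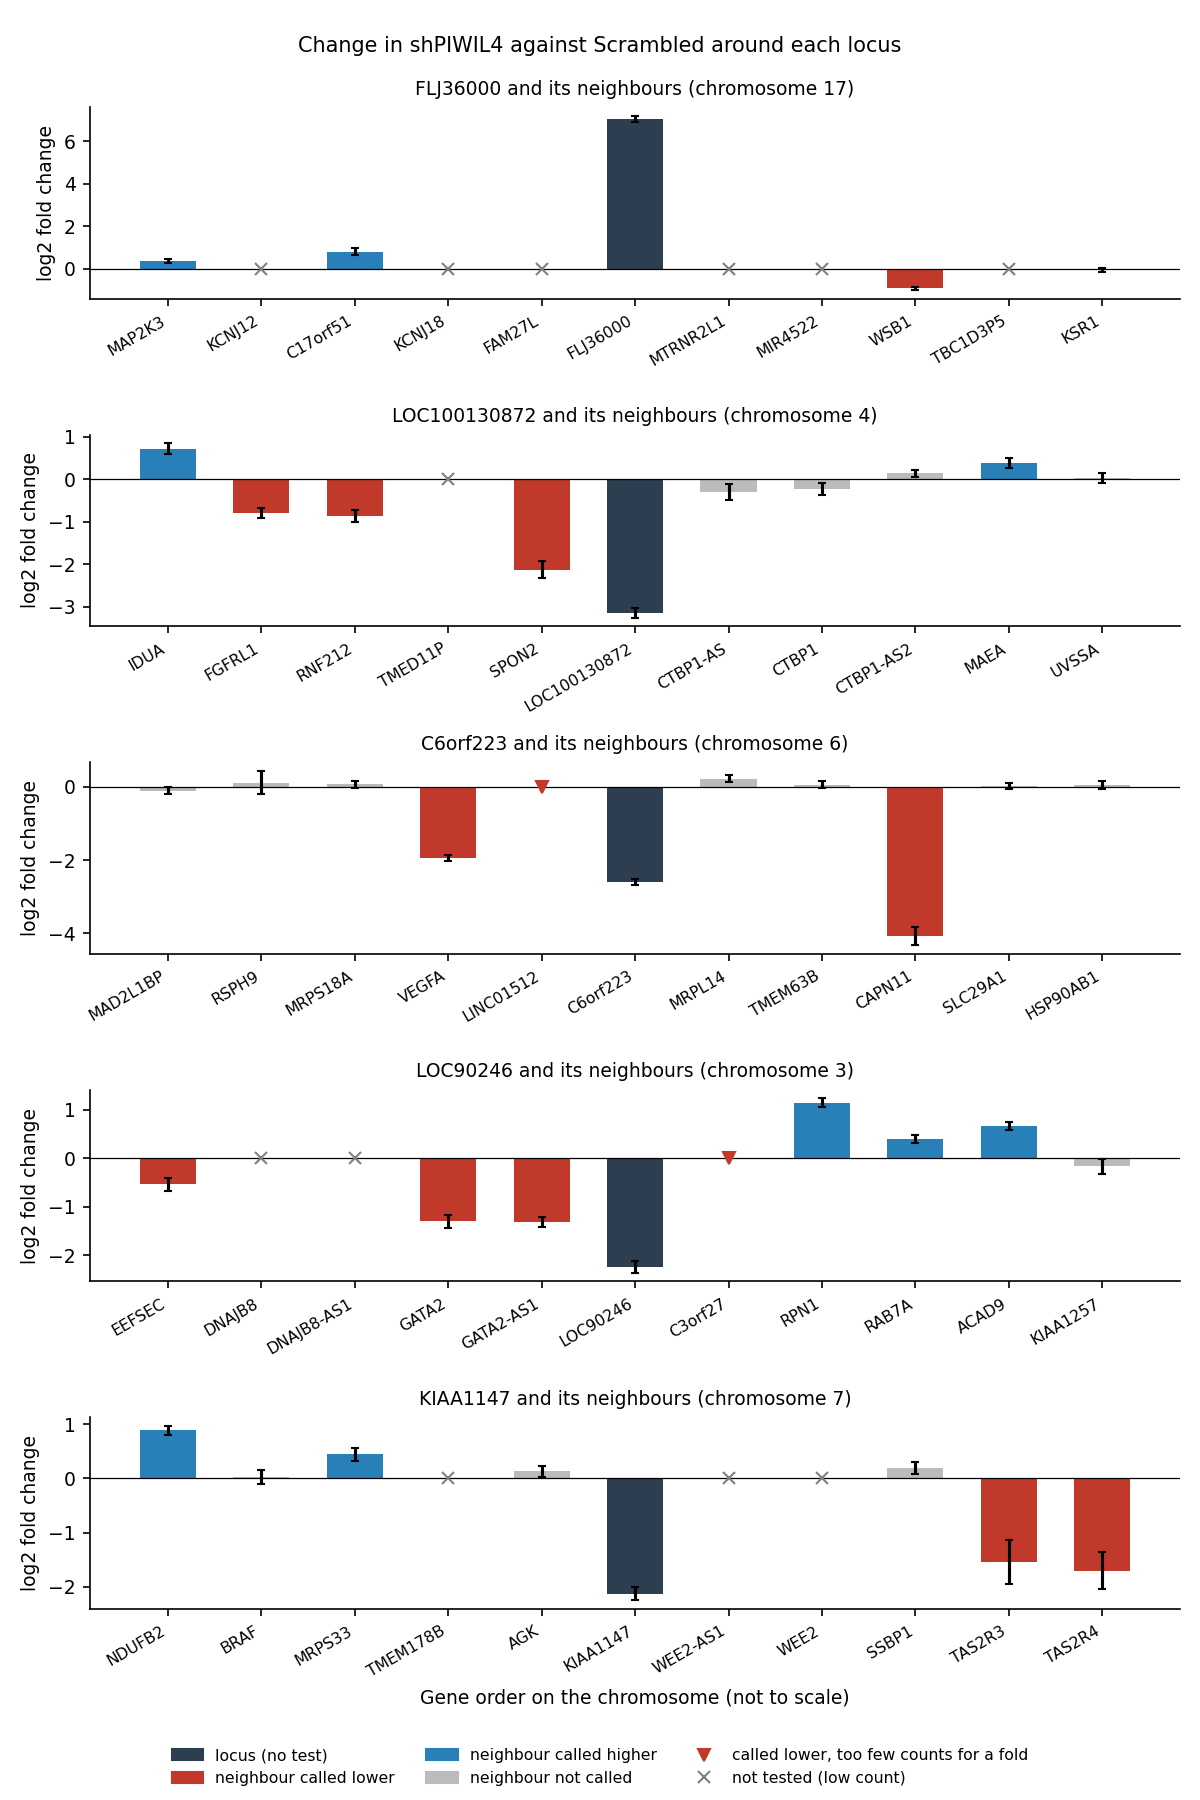
Log2 fold change of shPIWIL4 over Scrambled for each member and its tested neighbours in RefSeq order, 1 panel per member, with error bars of 1 SE, crosses for genes not tested and triangles for LINC01512 and C3orf27, whose shPIWIL4 counts are too low for a fold change. FLJ36000 (7.05) has only 4 tested neighbours, none beyond 2-fold, while the lower members have between 1 and 3 neighbours called at least 2-fold lower.

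**Figure D4:**
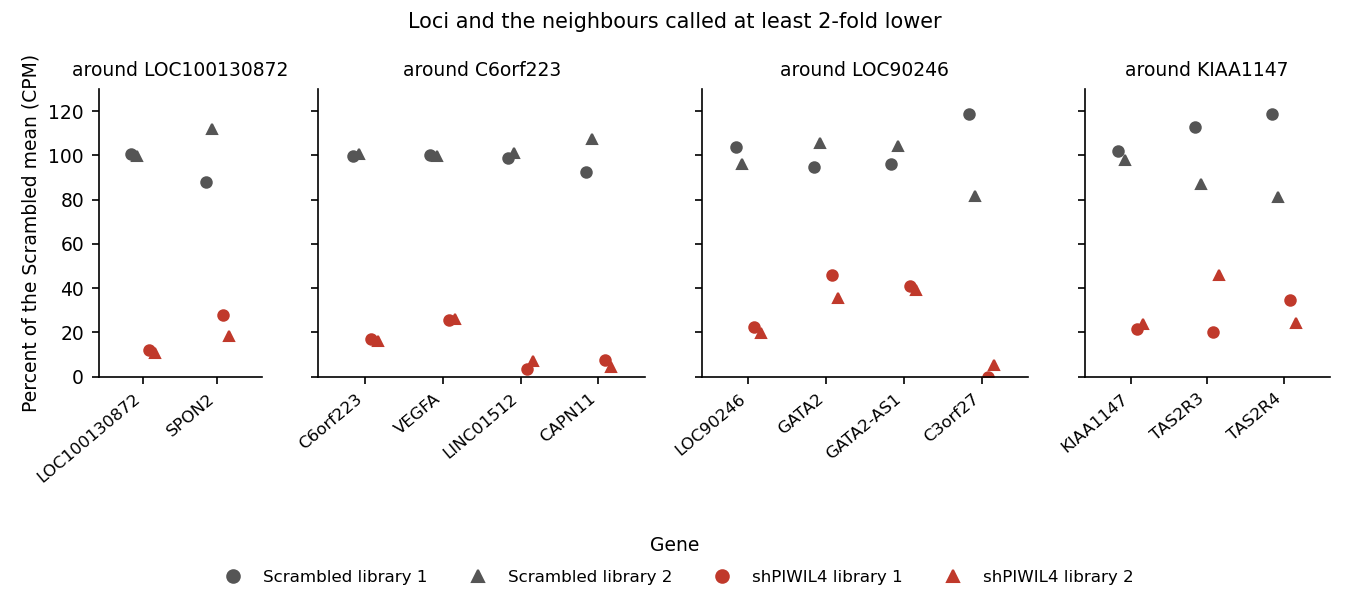
CPM in each library as a percent of the Scrambled mean, for the 4 lower members and the 9 neighbours called at least 2-fold lower. VEGFA is at 25.7% and 25.9% in the shPIWIL4 libraries, and C6orf223 at 16.8% and 16.2%. Every shPIWIL4 point lies below the Scrambled points of its gene, which follows largely from how these genes were picked. The groups did not overlap in 78.6% of all genes tested.

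Genes with the most similar pattern were taken as those with the smallest Euclidean distance from a member in log2 CPM, centred over the 4 libraries. With 2 groups of 2 libraries the distance mostly reflects the size of the difference between the groups. No gene was close to FLJ36000: the nearest, ART3, a member of the ADP-ribosyltransferase family, was at a distance of 1.89, with 5 and 24 reads in Scrambled and 561 and 643 in shPIWIL4. MGAT4C, a glycosyltransferase gene, followed at 2.21, with 1 and 1 against 100 and 91 reads, and the histone gene HIST1H2BJ, whose reads can be shared with near-identical copies, at 3.22, with 1 and 4 against 61 and 65 reads. All 3 went from few reads in the controls to many in shPIWIL4.

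The other 4 members had close matches. Nearest to LOC100130872 were MYOM1 (distance 0.118), which encodes a sarcomere protein, HRC (0.127), a calcium-binding protein of the sarcoplasmic reticulum, and FGF11 (0.130), of the fibroblast growth factor family. Nearest to C6orf223 were the zinc finger gene ZNF395 (0.0406), GNG7, a G protein gamma subunit (0.0560), and PPP1R1B, a phosphatase inhibitor (0.0571). By TPM ZNF395 was at 82.8 and 85.5 in Scrambled and at 15.3 and 14.1 in shPIWIL4, somewhat below C6orf223 in each library. Nearest to LOC90246 were GDPD3 (0.0369), FBXO27 (0.0704) and the pseudogene ZNF542P (0.0830). Nearest to KIAA1147 were GSDMB (0.0276), of the gasdermin family, ACSS2 (0.0305), an acetyl-CoA synthetase, and TUBA1A (0.0843), an alpha-tubulin that has near-identical copies. By TPM ACSS2 was at 152 and 148 in Scrambled and at 33.9 and 35.6 in shPIWIL4, so a gene far more abundant than KIAA1147 per length had a difference of the same size. None of these genes is among the 10 neighbours of the member it resembles.

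Other genes with names of the same kind were used to place the members. Leaving the members out, these were 2205 rows. Their names begin with LOC, FLJ, KIAA, MGC, DKFZ or PRO and hold a number, or are of the C6orf223 type. Letters were allowed before the number, so named genes that begin with PRO can be included. Of the 2205 rows, 959 were tested. Of these, 488 were called (50.9%, against 57.7% of all genes), 155 higher (16.2%, against 28.7%), and 333 lower (34.7%, against 29.1%), and their median log2 fold change was −0.18, against −0.003 for all genes. They were also less abundant, with a median of 3.87 CPM against 18.4 for all genes tested, and the part of this in the counts was not tested. Among the 719 placeholder-named genes with 1 CPM or more in the higher group, members included, FLJ36000 ranked first among rises. The next rises were far smaller, LOC101927153 at 2.01 (SE 0.36, adjusted p 0.0011) and C19orf10 at 1.61 (SE 0.09, adjusted p 1.1e-06). LOC100130872 had the second largest fall, between LOC100507387 at −3.60 (SE 0.26, adjusted p 5.6e-06) and LOC284865 at −3.04 (SE 0.23, adjusted p 7.5e-06), and C6orf223, LOC90246 and KIAA1147 were 6th, 12th and 13th.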

How the data were processed

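RNA-seq libraries of THP-1 cells, 2 Scrambled and 2 shPIWIL4, were analysed. The authors' deposited tables give a read count, an FPKM and a TPM per gene and library. Per the submitters' processing notes, STAR, featureCounts and DESeq2 were used with hg19. Their versions, the annotation of genes and any strand option were not given in the sources used here. FPKM was used only to recover the gene length, TPM only to describe levels per length, and the deposited series-wide normalized table was not used. The replicate numbers were not taken as pairs, because the labels do not say that a shared number marks a shared culture or day. Deviations of same-numbered libraries correlated at −0.312. With 2 libraries per group that value cannot show whether a batch was shared, under either numbering. Replicates differed by more than sampling noise (chi-square per gene of 7.89 for Scrambled and 27.9 for shPIWIL4).

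Counts were fitted with edgeR 4.0.16 in R 4.3.3 (filterByExpr, minimum count 10 and total 15, TMM factors, robust quasi-likelihood F test, group as the only term) over 16108 genes, with Benjamini-Hochberg adjustment and a call at an adjusted p under 0.05. The test was tried on simulated counts. TMM makes fold changes relative to the centre of all genes. CPM is the count scaled to the TMM library size. Adjusted p-values are two-sided, over all genes tested, and SE is the log2 fold change over the square root of F. DESeq2 1.42.0, other scalings, other filters, other neighbour ranges and left-out libraries were alternatives.

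Named genes were PIWIL4, the members, the 3 nearest genes on each side, overlapping genes and others of the 5 nearest called at 2-fold or more, the 3 most alike genes (prior count 2 in log2 CPM, the higher group at 1 CPM or more), and the 3 largest rises and falls among placeholder names. Other neighbours are named where a small count needed it. Members and lists were chosen with earlier results of these data known. RefSeq (GRCh38.p14) gave names, order and promoters, and matched 24433 of 25680 row names and all 5 members; it held 4 of their promoters. Near copies were searched with BLAST+ 2.17.0 for the 3 members in GENCODE v29 by name.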

Additional observations from a re-analysis of the deposited data

How the results depend on the processing

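All 5 members kept their direction in each of the 11 alternatives: log2 fold changes ranged from 6.93 to 7.30 for FLJ36000, −3.26 to −3.07 for LOC100130872, −2.72 to −2.56 for C6orf223, −2.37 to −2.15 for LOC90246 and −2.26 to −2.06 for KIAA1147. PIWIL4 ranged from −1.23 to −1.05 over the 10 alternatives that tested it and was called in each of those. With a replicate block, 8118 of all genes (9301 without), 22 of the 38 tested neighbours (22) and 428 of the placeholder-named genes (488) were called; with libraries paired across numbers, a choice made after seeing the data, the counts were 11369, 26 and 588. Leaving out a library, where the lone library of its group is assumed to vary like the other group, gave 7085 to 10175, 19 to 25 and 343 to 521. Taking 3 or 10 genes on each side in place of 5, 13 of 21 (4 higher, 9 lower) and 43 of 75 (24 higher, 19 lower) tested neighbours were called, against 9 higher and 13 lower; the totals differ by construction. With upper-quartile factors the median change over all genes was −0.124 (log2), and 37.6% of calls were then higher, against 49.7%. Gene by gene, 29 of the 38 tested neighbours kept their call in the alternatives that tested them, among them 8 of the 9 called at least 2-fold lower, the exception being TAS2R3. These were 10 alternatives for 33 genes and 9 for LINC01512, C3orf27, TAS2R3, TAS2R4 and RSPH9, which the stricter filter left out, and pairing across numbers was not among them. DESeq2 called 7827 of all genes. At the 1 to 3 reads of LINC01512 and C3orf27 in shPIWIL4, depth gives no usable fold change.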

Other observations

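The classes of placeholder names differed in their counts of calls. Over all genes tested, 28.7% were called higher and 29.1% lower. Of 496 tested LOC names, members left out, 51 were called higher (10.3%) and 191 lower (38.5%). Their median change was −0.31 (log2). Of 24 FLJ names, 2 were called higher (8.33%) and 12 lower (50.0%), with a median of −0.36. Of 73 KIAA names, 20 were called higher (27.4%) and 25 lower (34.25%), with a median of −0.03. Of 345 names of the C6orf223 type, 78 were called higher (22.6%) and 98 lower (28.4%), with a median of −0.05. The difference between these classes was not tested, and LOC names had a lower median level, 1.68 CPM, than all genes tested, 18.4 CPM.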
